A study of Mus musculus with 12 samples.

Results

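The nuclei described here are those that the deposited annotation of single-nucleus RNA sequencing (snRNAseq) of mouse liver assigned to cluster 8, which it labels Cultured Cells, or to cluster 19, which it labels Hepatocytes. The 2 clusters held 3512 of the 53467 annotated nuclei (6.57%), 2321 in cluster 8 and 1191 in cluster 19, and membership rested on the cluster number alone. The study sampled the livers of 8 wild-type mice, each at 3 steps of hepatocyte culture, which gave 24 samples. Liver is a snap-frozen biopsy taken after perfusion with EGTA, Cell Suspension is the cells released by collagenase, and Primary Hepatocytes are those cells after 24 hours in a monolayer on collagen with dexamethasone and insulin, detached with trypsin. Each sample carried a hashtag, an antibody-borne DNA barcode, and 4 hashtagged samples were sequenced together in each of 6 pools. The sample labels give the strain as C57BL6J, while the methods name male C57BL/6NTac mice, 10 to 12 weeks old at isolation and fed chow. No animal was treated or genetically changed. By the methods the biopsy, the suspension and the culture come from the same liver, so the same mouse number marks the same liver in all 3 sample types. The cluster nuclei are compared below with 41276 other hepatocyte nuclei of the same samples. These are the remaining nuclei labelled Hepatocytes, Isolated Hepatocytes or Cultured Cells, without cluster 12 (endothelial markers) and cluster 27 (stellate markers).

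Major satellite DNA is the tandem repeat that fills the pericentromeric heterochromatin of mouse chromosomes, and it is transcribed at a low level. Transcripts of the mitochondrial genome are made and kept inside mitochondria, so a preparation of clean nuclei holds few of them. In droplet methods each captured RNA molecule is counted once by its unique molecular identifier (UMI), a barcode tells the droplets apart, and a droplet without a nucleus still receives some free RNA and hashtag.

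The satellite signal came from 12 predicted genes of near-identical sequence. Gm10800 (chr2:98666547-98667301, minus strand, GRCm38) and Gm10801 (chr2:98662237-98664083, plus strand) lie side by side on chromosome 2. Gm21738 lies on chromosome 14 (chr14:19415857-19418930, minus strand), and the other 9 genes lie between chr9:3000922-3038316. All are annotated as protein-coding in GENCODE M21. All 26 of their annotated transcripts repeated themselves at a distance of 225 to 237 nt, and the distance was 234 nt in 19 of them. The repeat was partial: ungapped identity at that distance was 52.75% (Gm10801) to 69.66%, and 56.32% in Gm10800. The median over all distances tried was 31.53% in Gm10801 and 30.69% in Gm10800. Aligned in pairs, the genes were 87.5% to 97.4% identical (median 94.3%, 66 pairs). The 12 genes are summed below except where single genes are tested, since the division of reads among single copies is uncertain. A repeat unit of each of the 3 leading genes shows why; it is taken from the GENCODE M21 transcripts 5′ to 3′, with capitals for the 211 bases that all 3 units share:
Gm21738: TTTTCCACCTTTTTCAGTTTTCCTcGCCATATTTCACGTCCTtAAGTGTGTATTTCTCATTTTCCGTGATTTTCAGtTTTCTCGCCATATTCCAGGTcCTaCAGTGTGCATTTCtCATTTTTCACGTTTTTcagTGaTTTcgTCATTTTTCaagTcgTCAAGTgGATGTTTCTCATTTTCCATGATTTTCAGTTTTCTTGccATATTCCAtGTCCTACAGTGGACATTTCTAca
Gm10800: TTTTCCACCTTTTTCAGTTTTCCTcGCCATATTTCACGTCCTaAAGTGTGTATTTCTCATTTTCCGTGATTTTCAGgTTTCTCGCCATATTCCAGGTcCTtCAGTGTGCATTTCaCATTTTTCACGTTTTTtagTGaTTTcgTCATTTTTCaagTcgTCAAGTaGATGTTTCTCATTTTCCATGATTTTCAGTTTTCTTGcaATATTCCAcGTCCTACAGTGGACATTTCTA
Gm10801: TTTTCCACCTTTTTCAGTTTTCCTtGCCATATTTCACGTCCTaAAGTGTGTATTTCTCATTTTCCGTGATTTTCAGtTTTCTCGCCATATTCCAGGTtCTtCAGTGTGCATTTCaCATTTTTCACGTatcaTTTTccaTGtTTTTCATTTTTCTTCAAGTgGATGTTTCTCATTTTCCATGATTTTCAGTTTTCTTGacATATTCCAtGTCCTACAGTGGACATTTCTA
The units span bases 66 to 299 of the Gm21738 transcript, 291 to 522 of Gm10800 and 138 to 366 of Gm10801. Of the satellite-like UMIs in the cluster nuclei, Gm10800 took 46.7%, Gm10801 16.3%, Gm21738 10.0% and Gm10722 8.8%.

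Cluster nuclei were found in all 24 samples. Liver samples gave 1161 of them (166 in cluster 8, 995 in cluster 19), Cell Suspension gave 874 (705 and 169) and Primary Hepatocytes gave 1477 (1450 and 27). Their share of a sample's nuclei was 0.0375% to 17.8% in Liver (median 3.31%), 1.498% to 10.9% in Cell Suspension (median 4.83%) and 3.88% to 16.7% in Primary Hepatocytes (median 7.77%), and the 3 ranges overlapped. Within Liver the share differed between pools: the 3 samples of pool 6 gave 17.1%, 17.8% and 4.43%, the sample of pool 2 gave 11.0%, the 3 of pool 1 gave 0.0375%, 0.409% and 2.188%, and the sample of pool 5 gave 0.144%. Cluster 19 was thus largely a cluster of a few Liver samples, since mice 1 and 2 gave 515 and 229 of its nuclei. Cluster 8 outnumbered it in Liver of mice 3, 5, 7 and 8 (27 and 23 nuclei in mouse 8), and cluster 19 outnumbered cluster 8 in Cell Suspension of mice 6 and 7 (85 against 67 and 20 against 18). Pool and sample type were not crossed (Primary Hepatocytes were absent from pools 1 and 6, Liver from pools 3 and 4), so these shares are given as a description with no test. Liver of mice 3 and 5 held only 1 and 4 cluster nuclei, and the 22 samples with at least 10 entered the comparisons of cluster nuclei.

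**Figure D1:**
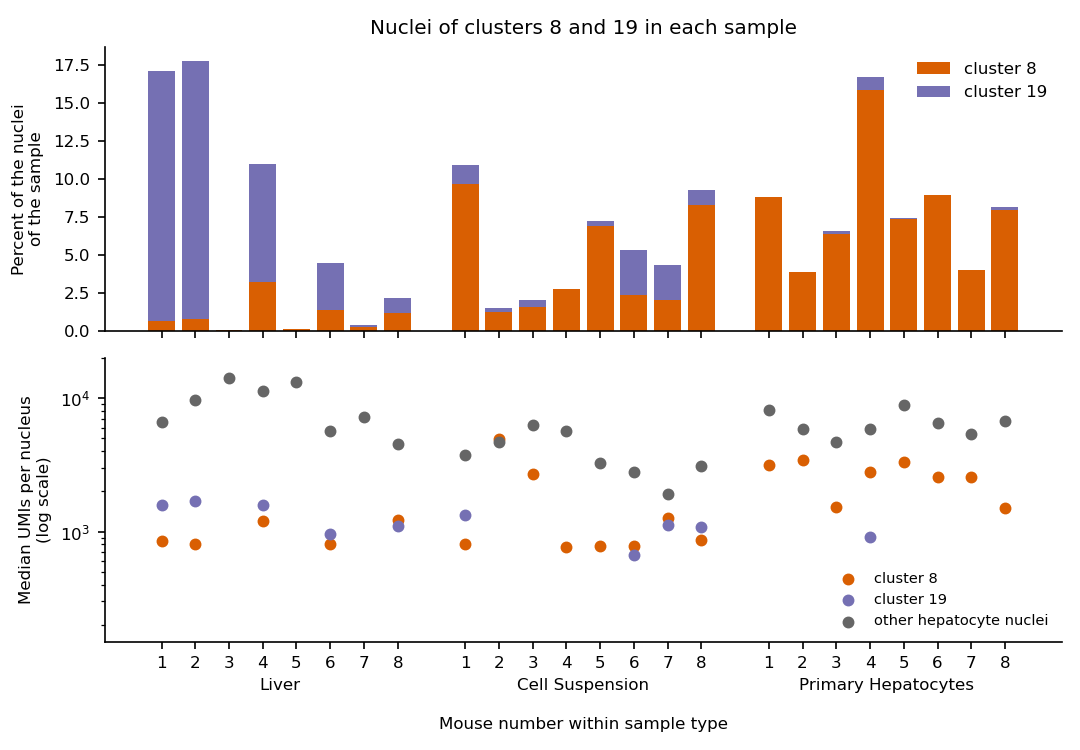
Percent of each sample's nuclei in cluster 8 and cluster 19 (stacked bars, upper panel) and median UMIs per nucleus on a log axis (dots, lower panel; clusters with at least 10 nuclei) for the 24 samples by sample type and mouse. Cluster 19 takes most of the bar in Liver of mice 1, 2, 4 and 6 and cluster 8 nearly all of the Primary Hepatocyte bars, and the cluster dots lie under those of other hepatocyte nuclei except for cluster 8 in Cell Suspension of mouse 2 (4911 against 4668.5 UMIs).

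The cluster nuclei were shallow. The median was 1400 UMIs per nucleus in Liver (range over the 6 tested samples 910 to 1650), 1368 in Cell Suspension (733.5 to 3363, 8 samples) and 2564 in Primary Hepatocytes (1438.5 to 3425, 8 samples), each a mean of sample medians. Other hepatocyte nuclei had 7525, 3915 and 6521. Median genes detected per nucleus were 872, 736.5 and 1528, against 2971, 1793 and 2879. As a share of the median over all nuclei of the same sample the cluster nuclei reached 30.5% in Liver, 40.7% in Cell Suspension and 46.2% for Primary Hepatocytes. Cell Suspension of mice 2 and 3, both in pool 4, stood apart with 3363 and 2412.5 UMIs. The annotation of pool 4 held no nucleus under 1398 UMIs, while in the other pools the lowest had 140 to 733. Shallower nuclei of pool 4 thus enter no depth or share given here. That pool also gave the lowest cluster shares of Cell Suspension (1.498% and 2.06%) and of Primary Hepatocytes (3.88% and 3.97%). Total UMIs of the cluster nuclei were 24369 to 1051551 per tested sample. Of the barcodes of the 3512 cluster nuclei, 44 (1.25%) also occurred in another pool, against 676 of all nuclei (1.26%).

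Satellite-like transcripts were higher in the cluster nuclei than in other hepatocyte nuclei in all 22 samples. Scaled to the total UMIs of each sample (CPM, the level used throughout), the 12 genes summed to 25661 ± 12893 in Liver (SD, n = 6, range 12475 to 48253), 20212 ± 16075 in Cell Suspension (n = 8, 4878 to 53825) and 16645 ± 4828 in Primary Hepatocytes (n = 8, 8982 to 23729). Other hepatocyte nuclei of the same samples had means of 2545, 1430 and 1316 CPM. The clusters were built from these transcripts among others, so the difference describes the clusters and is not tested. The highest values of other hepatocyte nuclei were 4068, 3566 and 2165 CPM, so the ranges did not overlap within a sample type, while the cluster values themselves varied several-fold between samples.

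Cluster 19 had the higher mean satellite level in each sample type. Its sums were 31485 ± 13580 CPM in Liver (n = 5 samples with at least 10 nuclei), 63956 ± 22324 in Cell Suspension (n = 4) and 120320 in the single Primary Hepatocyte sample that could be measured, against 23277 ± 12085 (n = 5), 11699 ± 7835 (n = 8) and 16031 ± 4085 CPM (n = 8) in cluster 8. The 2 clusters overlapped in Liver and did not overlap in Cell Suspension. In the median cluster 19 nucleus 2.87% of UMIs were satellite-like in Liver, 6.96% in Cell Suspension and 12.9% for Primary Hepatocytes. The medians were 1.61%, 1.62% and 1.92% in cluster 8 and 0.158%, 0.0988% and 0.0733% in other hepatocyte nuclei. At least 1% of UMIs were satellite-like in 97.9% of Liver cluster 19 nuclei, in 66.9% of Liver cluster 8 nuclei and in 9.78% of other Liver hepatocyte nuclei. In Primary Hepatocytes these shares were 100%, 72.7% and 2.84%.

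Because the cluster nuclei hold few UMIs in all, a raised share need not be a raised number of molecules. Satellite-like UMIs per nucleus averaged 39.0 in Liver, 30.8 in Cell Suspension and 52.9 for Primary Hepatocytes in the cluster nuclei, and 22.1, 6.05 and 9.93 in other hepatocyte nuclei. In cluster 19 they averaged 47.3, 70.2 and 164. The number per nucleus was thus also above that of the deeper nuclei. All genes outside the satellite-like, mitochondrial and ribosomal-DNA-like lists fell from 8641, 5255 and 7173 UMIs per nucleus to 1431, 1740 and 3063. Barcodes outside the annotation with 200 to 499 UMIs, taken here as background and numbering 55786 to 63645 per pool, held 1.11 to 3.195 satellite-like UMIs each and 6904 ± 2428 CPM (SD, n = 6 pools, 3037 to 9424). Other nuclei were also limited, in each sample, to those with no more UMIs than the 90th percentile of its cluster nuclei. Samples held 17 to 1187 such depth-limited nuclei, and the limit caps the depth without making it equal. Against them the satellite difference was 1.22 on the log2 scale in Liver, 2.14 in Cell Suspension and 2.74 for Primary Hepatocytes. Against all other nuclei it was 3.33, 3.90 and 3.69.

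**Figure D2:**
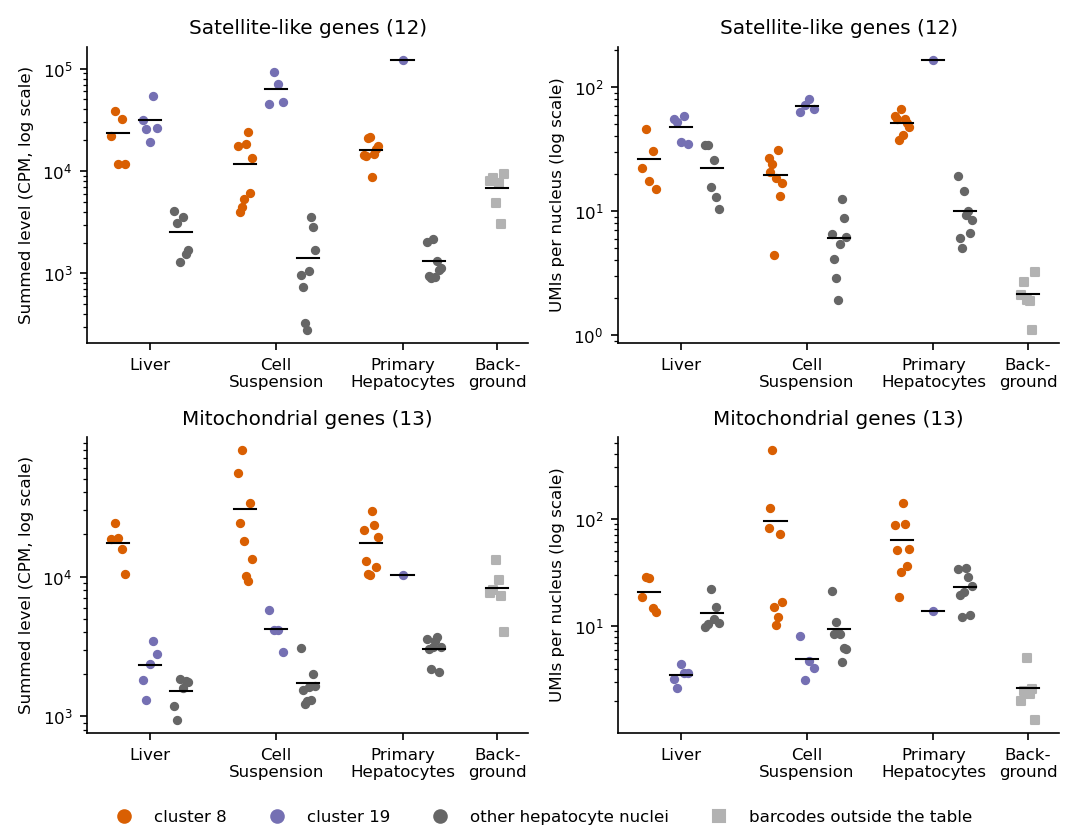
Summed satellite-like (upper panels) and mitochondrially encoded (lower panels) transcripts as CPM (left) and as UMIs per nucleus (right), on log axes. The groups are cluster 8, cluster 19 and other hepatocyte nuclei by sample type, and background barcodes. Points are samples or pools and bars their means; satellite-like UMIs per nucleus average 47.3 in Liver cluster 19 and 22.1 in other Liver hepatocyte nuclei, while mitochondrial UMIs average 63.2 in Primary Hepatocyte cluster 8 and 23.2 in other nuclei of that type; the highest point, 429.9 UMIs, is Cell Suspension cluster 8 of mouse 3.

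Mitochondrially encoded transcripts were higher in cluster 8 than in cluster 19 in Liver and Cell Suspension. The 13 protein-coding genes of the mitochondrial genome summed to 17507 ± 4995 CPM in cluster 8 of Liver (n = 5), to 30340 ± 25006 for Cell Suspension (n = 8, 9345 to 79733) and to 17371 ± 7142 for Primary Hepatocytes (n = 8). In cluster 19 they summed to 2349, 4241 and 10209 CPM, the last from Primary Hepatocytes of mouse 4, where cluster 8 held an equal 10178 CPM, and in other hepatocyte nuclei to 1521, 1722 and 3035. The working description of these nuclei as rich in mitochondrial RNA therefore holds for cluster 8, whereas Liver cluster 19, the larger cluster in that sample type, ranged from 1303 to 3468 CPM and overlapped with other Liver hepatocyte nuclei (949 to 1843 CPM). Background barcodes held 3994 to 13105 CPM. Against the depth-limited other nuclei the mitochondrial difference (log2, both clusters together) was 0.400 in Liver, 2.71 in Cell Suspension and 2.01 for Primary Hepatocytes. Against all other nuclei it was 1.61, 3.60 and 2.44.

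mt-Co1, which encodes a core subunit of cytochrome c oxidase, gave 33.8% of the mitochondrial UMIs of the cluster nuclei, and mt-Atp6, a subunit of ATP synthase, gave 11.0%. In Cell Suspension mt-Co1 stood between 2254 and 18968 CPM (median 5369) in the cluster nuclei and between 316.1 and 898 CPM in other hepatocyte nuclei, so the groups did not overlap. In Primary Hepatocytes the ranges were 3714 to 11211 and 925.3 to 1524 CPM, again without overlap. In Liver they were 611.4 to 2269 and 290.9 to 540.2 CPM, with the 2 lowest values in mice 1 and 2, whose cluster nuclei are nearly all cluster 19. Of the 13 genes, 12 were higher than in other hepatocyte nuclei in all 22 samples, and mt-Atp8 in 19. Mitochondrial UMIs per nucleus averaged 20.7, 95.7 and 63.2 in cluster 8 of Liver, Cell Suspension and Primary Hepatocytes, 3.53, 4.99 and 13.9 in cluster 19 and 13.3, 9.32 and 23.2 in other nuclei. Cell Suspension of mouse 3, with 429.9 UMIs, carried the mean of 95.7, which was 47.96 without it (the other 7 samples ranged from 10.16 to 126.5). The typical nucleus held fewer than these means: the median cluster 8 nucleus had 8 mitochondrial UMIs in Liver, against 11 in other Liver hepatocyte nuclei, and 8 in Cell Suspension, against 5. At least 1% of UMIs were mitochondrial in 42.8% of Liver cluster 8 nuclei and in 46.95% of those of Cell Suspension.

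From nucleus to nucleus the satellite and the mitochondrial share had a negative correlation in cluster 8 and a positive one in cluster 19. Within cluster 8 the Spearman correlation of the 2 shares was -0.08 in Liver, -0.17 in Cell Suspension and -0.44 for Primary Hepatocytes, over 166, 705 and 1450 nuclei. Within cluster 19 it was 0.18 in Liver (995 nuclei) and 0.17 in Cell Suspension (169 nuclei). The nuclei share libraries and depth, so the values are given without a test. Within Primary Hepatocytes the median cluster 8 nucleus held 1.05% mitochondrial and 1.92% satellite-like UMIs.

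A further non-messenger signal was ribosomal-DNA-like. Gm42418 (chr17:39846958-39848788, plus strand), a lincRNA gene whose locus holds ribosomal repeat sequence and overlaps the antisense gene AY036118, reached 81574 CPM in the cluster nuclei and 20748 CPM in other hepatocyte nuclei, a mean log2 ratio of 1.95 over the 22 samples. It gave 86.0% of the UMIs of the 4 ribosomal-DNA-like genes, which summed to 87940 ± 28179 CPM in Liver, 130390 ± 38377 in Cell Suspension and 63079 ± 11290 for Primary Hepatocytes, and to 126350 CPM in the background. Per nucleus these were 137, 245 and 205 UMIs, against 182, 154 and 224 in other nuclei. Samples went both ways, with higher counts in the cluster nuclei in 1 of 6 samples from Liver, 6 of 8 from Cell Suspension and 3 of 8 for Primary Hepatocytes, and mice 2 and 3 (658.8 and 317.5 UMIs) carried the Cell Suspension mean. Against the depth-limited other nuclei the ribosomal-DNA-like difference in level (log2) was 0.615, 0.921 and 0.652, in place of 2.00, 2.07 and 1.03 against all. Malat1 and Neat1, long noncoding RNAs held in the nucleus, were not raised: Malat1 was at 34758 against 42173 CPM, and Neat1 at 4938 against 9461 CPM and lower in all 22 samples.

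Genes that define hepatocytes were present at a share close to that of other nuclei in Liver, lower on average in Cell Suspension and higher in all 8 Primary Hepatocyte samples. The 18 secreted and metabolic hepatocyte genes, among them Alb (albumin), Apob (the protein of VLDL) and Cps1 (the entry enzyme of the urea cycle), summed to 20464 CPM in Liver, 24098 in Cell Suspension and 9270 for Primary Hepatocytes, against 22219, 28657 and 5638 in other hepatocyte nuclei. Background barcodes held 19695 CPM of the same genes. Per nucleus the cluster nuclei had 33.6, 62.6 and 32.2 UMIs of these genes, against 194, 153 and 42.4 in other nuclei. Mice 2 and 3 (135.7 and 212.0 UMIs) carried the Cell Suspension mean, and the other samples of that type held 12.7 to 46.8. In Liver the cluster nuclei were lower in 4 of 6 samples by a mean log2 ratio of -0.12, which became 0.02 with repeat and mitochondrial genes left out of the total.

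Within the list the genes parted. Cps1 was lower in the cluster nuclei in 20 of 22 samples (2048 against 3954 CPM, mean log2 ratio -0.84 ± 0.54, SD), whereas Apoa2, an apolipoprotein of high-density lipoprotein, was higher in all 22 (861.3 against 283 CPM, 1.48 ± 0.77). Alb was higher in 16 and lower in 6. Cytosolic ribosomal protein genes likewise had a median log2 ratio of 0.89 over the 57 measured at 50 CPM or more, against -0.43 over all 4120 genes at that level.

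Markers of other liver cell types were low but above the other hepatocyte nuclei. The 6 endothelial markers summed to 118, 196 and 167 CPM in Liver, Cell Suspension and Primary Hepatocytes, against 30, 38 and 76, and to 331 CPM in the background. The 6 Kupffer cell markers (50, 53 and 32 CPM against 11, 13 and 11, background 90) and the 6 leukocyte markers (86, 111 and 82 against 16, 17 and 18, background 107) behaved alike. Biliary markers (117, 122 and 176 against 156, 137 and 163, background 131) did not, and stellate markers (74.6, 104 and 265 against 31.4, 30.2 and 237, background 191) were higher on average in all 3 sample types. The 5 haemoglobin genes were at 16.96, 4.78 and 2.10 CPM against 5.50, 4.61 and 1.12. What part these RNAs have in the results was not tested.

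The label Cultured Cells of cluster 8 did not describe all of its nuclei: 871 of the 2321 (37.5%) carried a Liver or Cell Suspension hashtag, whereas in the other clusters of that label only 81 of 16749 (0.484%) did. Genes that culture raised in other hepatocyte nuclei give a check of the hashtags. The 90 genes raised at least 8-fold there in Primary Hepatocytes summed in cluster 8 to 1266 ± 461 CPM in Liver (674.4 to 1740, n = 5), 3092 ± 1530 in Cell Suspension (617.6 to 5833, n = 8) and 16117 ± 1210 in Primary Hepatocytes (14151 to 17779, n = 8). The Primary Hepatocyte samples of cluster 8 did not overlap with the others. In other hepatocyte nuclei the sums were 625.9, 964.8 and 19879 CPM, and in the background 1051 to 13536 CPM. The 370 genes lowered at least 8-fold stood at 100240, 84396 and 15749 CPM in cluster 8 and at 171150, 163540 and 12939 in other hepatocyte nuclei. By their means the sample types of cluster 8 were thus in the order of their hashtags, with less contrast than in other hepatocyte nuclei. Liver and Cell Suspension samples of cluster 8 overlapped for both sets of genes. Neither cluster is given a cell type name here. The 18 hepatocyte genes summed to 12731 CPM in cluster 8 and 18971 in cluster 19. No marker list of another cell type exceeded 265 CPM in cluster 8 or 143 in cluster 19. Background barcodes held 13783 to 25706 CPM of the hepatocyte genes between pools.

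Genes of at least 10 kb that other hepatocyte nuclei barely express formed the next difference, which was chosen after its values were seen. Across 5588 genes of at least 10 kb with under 20 CPM per megabase (Mb) of gene span in pooled other hepatocyte nuclei, the cluster nuclei held 46.6 ± 13.96 CPM per Mb in Liver (SD, n = 6), 72.7 ± 33.7 in Cell Suspension (n = 8) and 58.4 ± 26.0 in Primary Hepatocytes (n = 8). Other hepatocyte nuclei held 10.3 ± 1.1, 10.7 ± 3.61 and 14.3 ± 2.10, and the cluster nuclei were higher in 22 of 22 samples. Of the 5588 genes 2699 spanned 10 to 30 kb, 1850 spanned 30 to 100 kb, 734 spanned 100 to 300 kb, 266 spanned 300 kb to 1 Mb and 39 over 1 Mb. The genes were picked for being low in the other nuclei, so the direction is in part given by the choice, at any limit.

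The level per Mb rose modestly with gene length in the cluster nuclei, in other nuclei and in the background. From genes of 10 to 30 kb to genes over 1 Mb, Cell Suspension cluster 19 held 126, 143, 141, 161 and 164 CPM per Mb, and Primary Hepatocyte cluster 8 held 47.0, 56.3, 55.8, 62.1 and 64.7. Liver cluster 19 held 43.6, 51.0, 50.8, 54.7 and 55.9. Over the same classes other nuclei went from 8.39 to 12.25 in Cell Suspension and from 7.99 to 11.8 in Liver, and background barcodes from 29.9 to 43.3. Of the UMIs of these genes, 95.01%, 95.3% and 94.8% were unspliced in the 3 sample types, against 94.0%, 93.9% and 93.2% in other nuclei. Lrp1b, a lipoprotein receptor gene of over 2 Mb, is an example: pooled over Cell Suspension it stood at 376 CPM in cluster 19, 183 in cluster 8, 36.8 in other hepatocyte nuclei and 122 in the background. Pooled over Liver it stood at 137 CPM in cluster 19, 134 in cluster 8 and 30.9 in other hepatocyte nuclei. Background barcodes held 38.3 ± 8.58 CPM per Mb (n = 6 pools) of the 5588 genes. Per nucleus the genes gave 32.3, 54.1 and 84.4 UMIs in the cluster nuclei and 40.7, 23.5 and 47.7 in other nuclei, so the number of molecules was higher in Cell Suspension and Primary Hepatocytes and lower in Liver.

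**Figure D3:**
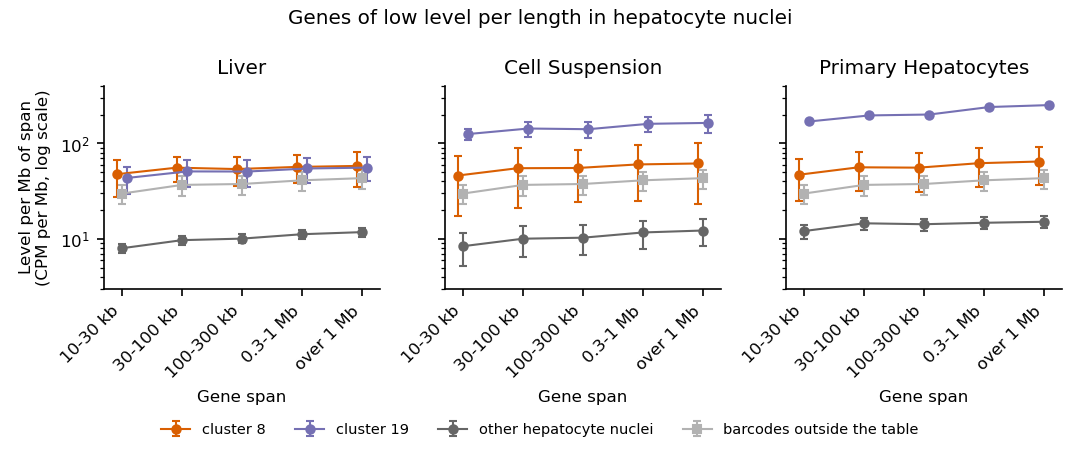
Summed CPM per Mb of gene span (log axis) of 5588 genes of at least 10 kb barely expressed in other hepatocyte nuclei, by class of gene span, for cluster 8, cluster 19, other hepatocyte nuclei and background barcodes in the 3 sample types. Points are means and bars SD over samples (Primary Hepatocyte cluster 19 is 1 sample); the lines rise modestly with span, from 126 to 164 for Cell Suspension cluster 19 and from 8.39 to 12.25 for other Cell Suspension nuclei.

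Among single genes of at least 50 CPM, 104 of 4120 were higher in the cluster nuclei in every sample (2.52%) and 318 were lower (7.72%). The 10 with the largest mean rise were led by Gm10800, whose level was 6648 to 22887 CPM in Liver (median 10418), 2276 to 24931 in Cell Suspension (8562) and 4250 to 10947 in Primary Hepatocytes (7298). Its level outside the clusters was 597.6 to 1866, 122.4 to 1616 and 402 to 992.9 CPM, so the ranges did not overlap within a sample type. The mean log2 ratio was 3.71 ± 0.58 (SD, n = 22). The next 9 were satellite-like genes too, with the exception of Gm33838 (3.53), a predicted gene outside the list. The largest mean falls were of Ptp4a1, a phosphatase (31.7 against 86.3 CPM, -1.68 ± 1.43), and of Pde7a, Adtrp, Tmem243 and Pex7, but their order rests on single samples near 0 CPM, since the lowest log2 ratio was -7.76 for Adtrp (SD 1.54) and -7.49 for Pex7 (SD 1.48). Plin2, the coat protein of lipid droplets, was at 117 against 205 CPM.

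The hashtags and the splicing within genes were not used to make the clusters and could be tested over samples, with exact paired sign-flip tests (two-sided) and Benjamini-Hochberg adjustment over the 9 tests. In Primary Hepatocytes the median hashtag count was 599 to 1412 UMIs per cluster nucleus and 717 to 1838 per other hepatocyte nucleus, and it was lower in 8 of 8 samples. The ratio was 0.806 (log2 -0.31 ± 0.07, SD, n = 8, exact p = 0.00781, the smallest this design allows, adjusted p = 0.0234). In Liver the mean counts were 2177 and 2126 UMIs, with 3 of 6 samples lower (adjusted exact p = 0.969), and in Cell Suspension 1181 and 1278 with 5 of 8 lower (adjusted exact p = 0.462). Median hashtag counts of background barcodes were 532 to 1605 UMIs between pools.

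Purity of the hashtag, the percentage of a nucleus's tag UMIs that belonged to its own sample, was likewise lower for Primary Hepatocytes. It was 32.5% in the cluster nuclei and 45.1% in other hepatocyte nuclei, lower in 8 of 8 samples by 12.7 ± 2.87 percentage points (adjusted exact p = 0.0234). In Liver it was 53.5% against 55.2% (3 of 6 lower, adjusted exact p = 0.562) and in Cell Suspension 43.9% against 47.1% (6 of 8 lower, adjusted exact p = 0.352), and these differences were within the spread between samples.

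Fewer UMIs of the cluster nuclei were unspliced, that is, read into introns. The share was 58.3% in Liver, 56.6% in Cell Suspension and 53.7% for Primary Hepatocytes, against 74.0%, 66.7% and 64.4% in other hepatocyte nuclei. The share depends on which genes are counted, so the share was also compared after giving the other nuclei the cluster nuclei's makeup, gene by gene and without satellite-like and mitochondrial genes. At equal makeup it was 55.1% against 60.8% in Primary Hepatocytes, lower in 8 of 8 samples by 5.74 ± 0.876 points (adjusted exact p = 0.0234). The differences were -7.54 ± 2.04 points in Liver (6 of 6 lower, exact p = 0.0312, the smallest 6 pairs allow, adjusted exact p = 0.0703) and -3.33 ± 3.67 in Cell Suspension (7 of 8 lower, adjusted exact p = 0.0703). Against the depth-limited other nuclei the Cell Suspension difference was 0.573 points. Background barcodes differed from the same expectation by -0.477 to -5.04 points between pools.

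**Figure D4:**
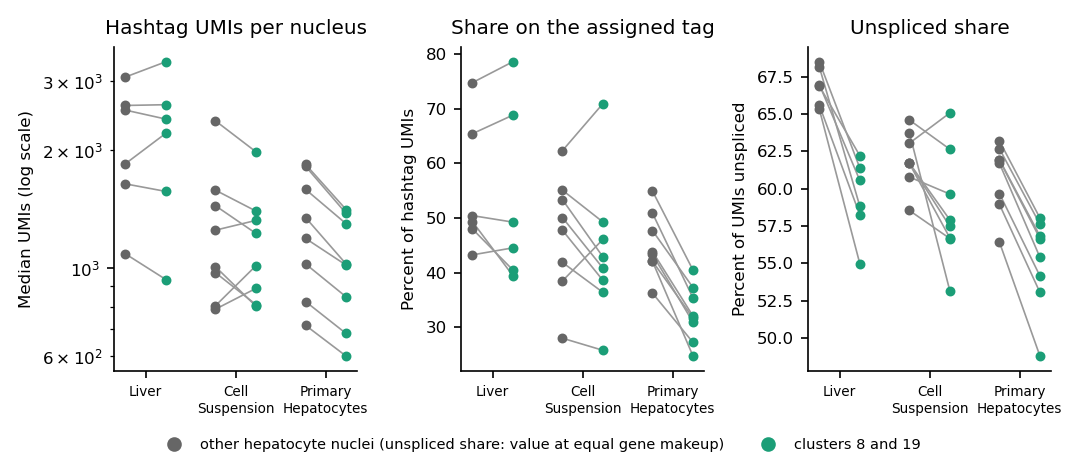
Hashtag UMIs per nucleus, percent of hashtag UMIs on the assigned tag, and percent of unspliced UMIs for other hepatocyte nuclei and for nuclei of clusters 8 and 19, each line a sample, by sample type. For the unspliced percent the other nuclei are set to the gene makeup of the cluster nuclei; the 8 Primary Hepatocyte lines fall in all 3 measures, by 12.7 points for the tag share and 5.74 for the unspliced share.

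Summed per sample, the cluster nuclei still differed between the 3 steps of culture. By edgeR's quasi-likelihood test on the summed counts, with Benjamini-Hochberg adjustment over 18748 genes and a threshold of 0.05, 5454 genes (29.1%) differed between Primary Hepatocytes and Liver, 4704 (25.1%) between Primary Hepatocytes and Cell Suspension, and 1164 (6.21%) between Cell Suspension and Liver. In the deeper other hepatocyte nuclei the same contrasts called 55.1%, 52% and 22.4% of 26439 genes. That fit also held Liver of mice 3 and 5, and the log2 fold changes of other nuclei below come from it. The cluster nuclei of Liver are mostly cluster 19 and those of Primary Hepatocytes almost all cluster 8, so a contrast of sample types is also one of clusters. Within cluster 8 alone, 2485 genes (14.2% of 17545) differed between Primary Hepatocytes and Liver, 3957 (22.6%) between Primary Hepatocytes and Cell Suspension and 64 (0.365%) between Cell Suspension and Liver, and within cluster 19 alone the last contrast gave 515 (4.28% of 12033). Without mouse 1, whose Liver sample holds the most cluster nuclei, 378 genes differed between Cell Suspension and Liver, and without mouse 2, 716. With the mouse as a replicate block 775 did, in place of 1164, while the other 2 contrasts gave 4681 and 4515. With the pool as a covariate 2278 genes, in place of 5454, differed between Primary Hepatocytes and Liver. Only pool 2 held both a tested Liver sample and a Primary Hepatocyte sample, each of mouse 4. Outside that pool the adjusted contrast of these 2 types rests on links through Cell Suspension. The contrasts share samples, so their results are set side by side and no overlap is given.

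The percentages called over all genes, against which the lists below are read, depended on direction and depth. In the cluster nuclei 15.9% of genes were called higher and 13.2% lower in Primary Hepatocytes than in Liver, 14.5% and 10.6% against Cell Suspension, and 2.67% and 3.54% from Liver to Cell Suspension. The samples of the 2 types did not overlap for 13.8%, 10.1% and 1.01% of genes in these contrasts. Other hepatocyte nuclei had 28.2% called higher and 26.9% lower, then 27.9% and 24.1%, and then 8.29% and 14.1%. Within cluster 8 the figures were 10% and 4.14%, 14.3% and 8.25%, and 0.348% and 0.0171%, and within cluster 19, from Liver to Cell Suspension, 2.08% and 2.2%. Whether a change differed between the cluster nuclei and other hepatocyte nuclei was tested over 26633 genes. From Liver to Primary Hepatocytes 926 (3.48%) differed, with 2.28% higher and 1.19% lower in the cluster nuclei, and from Liver to Cell Suspension 1466 (5.5%), with 1.19% higher and 4.31% lower. These splits by direction moved with the scaling: with edgeR's RLE size factors in place of TMM the calls from Liver to Cell Suspension were 872 higher and 317 lower in place of 501 and 663, and the differences of the change were 448 higher and 534 lower in place of 608 and 318, then 1009 and 577 in place of 318 and 1148.

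Hepatocyte genes fell in culture in the cluster nuclei, and 11 of 18 were less lowered than in other hepatocyte nuclei by the test of the difference. Of the 18 secreted and metabolic genes, 10 fell from Liver to Primary Hepatocytes and none rose (median log2 fold change -0.88, against 0.15 over all genes). In other hepatocyte nuclei all 18 fell (median -2.05). The difference of the change passed for 11 of the 18, each less lowered in the cluster nuclei, and for 6 with satellite-like, mitochondrial and ribosomal-DNA-like genes left out of the scaling. Within cluster 8, 13 of the 18 fell (median -1.30, against 0.94 over all genes). With the pool as a covariate all 18 fell in the cluster nuclei (median -1.97). Other nuclei were not refitted with the pool, so this median has no like value among them. The difference of the change was not tested with that covariate. Its test compared the 2 kinds of nuclei within each sample, where an effect of the pool on both alike drops out.

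Alb in the cluster nuclei was 1767 to 4122 CPM in Liver (median 3041) and 1584 to 4435 in Primary Hepatocytes (3350), so the groups overlapped. In other hepatocyte nuclei it was 2104 to 4113 and 698.4 to 2262 CPM. The log2 fold change was -0.01 (SE 0.30, edgeR adjusted p = 0.999) in the cluster nuclei and -1.61 in other nuclei, and the difference of 1.61 passed the test (adjusted p = 7.38e-15). Alb changed by -1.33 in the cluster nuclei once the pool was a covariate (edgeR adjusted p = 0.0027). By splicing state Alb moved in both directions in the cluster nuclei, with a fall of unspliced UMIs (-1.52, adjusted p = 3.64e-08) beside a rise of spliced UMIs (1.18, adjusted p = 0.00557).

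Ttr (transthyretin) was 443.3 to 1078 CPM in Liver (median 593) and 205.4 to 517.5 in Primary Hepatocytes (344.9), which overlap, a change of -1.03 (adjusted p = 0.00102) against -3.40 in other nuclei. Without mouse 4 the change was -0.49 (edgeR adjusted p = 0.194). It fell by 3.46 on the log2 scale in unspliced UMIs (adjusted p = 3.28e-37) and stood at 0.33 in spliced UMIs (adjusted p = 0.435). Cyp2e1, the pericentral cytochrome that oxidises ethanol, was 410.4 to 1275 CPM in Liver and 39.5 to 201.5 in Primary Hepatocytes, which did not overlap. Its change was -3.06 (adjusted p = 5.59e-19) against -5.31 in other nuclei.

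Zonated genes and transcription factors fell with them. Of the 10 pericentral genes 9 fell from Liver to Primary Hepatocytes in the cluster nuclei (median -2.91; other nuclei 10, -4.48) and 7 of the 10 periportal genes (median -2.74; other nuclei 7, -3.80). The difference of the change passed for 6 and 5 of them, each less lowered in the cluster nuclei. Of 14 hepatocyte transcription factors 11 fell and 1 rose (median -2.10; other nuclei 13 fell), and the difference of the change had a median of 0.30, with 1 of 14 at an unadjusted edgeR p under 0.05 and none passing after adjustment. Nr1i3, the nuclear receptor CAR, was 15.3 to 127.7 CPM in Liver and at most 4.11 in Primary Hepatocytes (log2 fold change -5.55, SE 0.41, adjusted p = 1.12e-23). Hnf4a, a regulator of hepatocyte identity, fell from 373.4 to 211.9 CPM (-0.94, adjusted p = 0.000388). Within cluster 8 its change was 0.06 (adjusted p = 0.912), where the median change over all genes was 0.94.

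**Figure D5:**
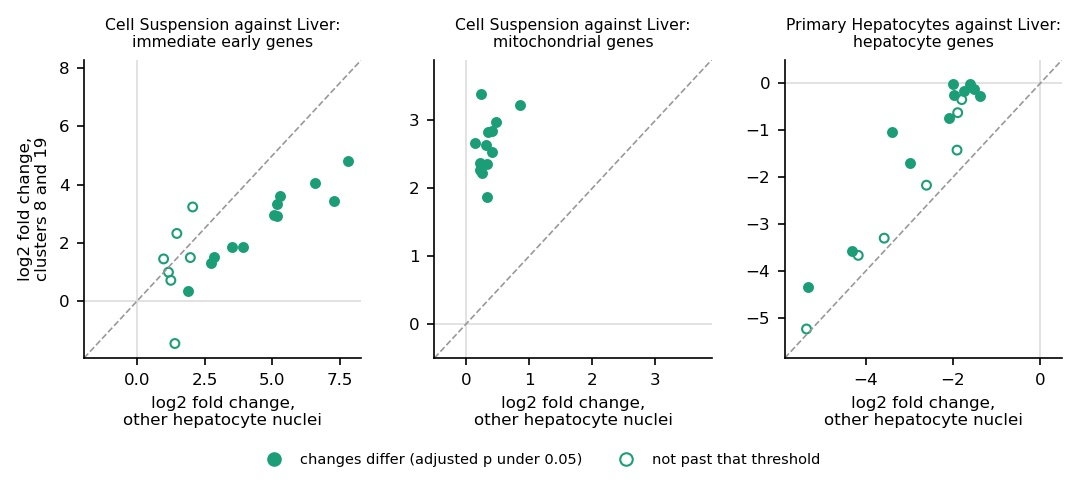
Log2 fold change in other hepatocyte nuclei (x axis) against that in nuclei of clusters 8 and 19 (y axis) for immediate early genes and mitochondrially encoded genes (Cell Suspension against Liver) and hepatocyte genes (Primary Hepatocytes against Liver); each point is a gene, the dashed line is equality, and filled points differ between the 2 kinds of nuclei at an adjusted p under 0.05. The hepatocyte genes that pass the test lie above the line, immediate early genes below it in 12 of 19 cases by the test, and all 13 mitochondrial genes above it.

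The largest rises from Liver to Primary Hepatocytes by the naming rule were of Gsta1, Mt2, Orm2, Saa1 and Sprr1a. Gsta1, a glutathione transferase, had no UMI in the Liver cluster nuclei and 58.9 ± 21.4 CPM in Primary Hepatocytes (15.4 to 83.9, n = 8), close to the 56.3 CPM of other nuclei. Mt2, a metal-binding metallothionein, rose from 1.70 to 457.5 CPM (log2 fold change 7.43, SE 0.57, adjusted p = 5.80e-23; within cluster 8 6.48). Saa1, an acute-phase protein, rose from 12.2 to 489 CPM (6.24, adjusted p = 7.86e-21). None of these 5 genes passed the test of a different change from that in other nuclei (adjusted p 0.136 to 0.753). The SE of that difference was 0.49 (Saa1) to 3.67 (Gsta1) on the log2 scale, so large differences could be missed. Background barcodes held 28.3 CPM of Gsta1, 182 of Mt2, 42.5 of Orm2, 187 of Saa1 and 21.9 of Sprr1a.

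Part of the stress and cell cycle genes and most ribosomal protein genes also rose, and far fewer did with the pool as a covariate. That fit also called fewer genes over all genes, as given above, and only pool 2 held both sample types in it. Of 15 measured p53 and apoptosis genes 9 rose and 1 fell, of 12 heat shock genes 6 rose, and of 14 cell cycle genes 7 rose. Of these, 3, 2 and 2 rose with the pool as a covariate. Genes of pericentromeric heterochromatin, such as the histone methyltransferases Suv39h1 and Suv39h2, were mixed, with 4 of 18 up and 3 down (median 0.02). Of 84 cytosolic ribosomal protein genes 79 rose (median 1.86), as did 78 of 85 in other hepatocyte nuclei (median 0.84), and 29 rose within cluster 8 (median 1.16, where the median over all genes was 0.94). Only 3 of the 84 rose with the pool as a covariate (median 0.53). Of 80 nuclear-encoded respiratory chain genes 5 rose and 5 fell (median 0.06), whereas 76 of 83 fell in other hepatocyte nuclei (median -0.80), and the difference of the change passed for 15 (11 with RLE scaling, 6 with the repeat and mitochondrial genes left out), each less lowered in the cluster nuclei. In the cluster nuclei 1 rose and 4 fell with the pool as a covariate (median -0.77), and 4 rose and 2 fell with the mouse as a replicate block.

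Satellite-like genes were lower and mitochondrial genes higher in Primary Hepatocytes, and neither held under every setting. Of the 12 satellite-like genes 11 were lower in Primary Hepatocytes than in Liver (median -0.88), and 11 in other nuclei (median -1.13). The 12 are near-identical in sequence, so such counts are not of independent genes, and their sum was not tested. The call was not stable: with the mouse as a replicate block 6 were lower, with RLE scaling 4, with DESeq2 1, and within cluster 8 none by edgeR, also at an unadjusted p (0 of 12 under 0.05, median -0.25). Gm10800, Gm10801 and Gm21738 did not pass under the block (edgeR adjusted p = 0.0962, 0.0689 and 0.0999), and with the pool as a covariate the change of Gm10800 was 0.77, in place of a fall, and the median of the 12 was 0.67 (none passed by edgeR, 7 at an unadjusted p under 0.05). All 13 mitochondrial genes were higher in Primary Hepatocytes than in Liver (median 1.49) and 11 of them with DESeq2. Within cluster 8 edgeR called none, with 2 of 13 at an unadjusted p under 0.05 and a median of -0.08 against 0.94 over all genes. By edgeR with the pool as a covariate none of the 13 passed, 1 had an unadjusted p under 0.05 and the median was -0.13, and neither mt-Atp6 (0.18, edgeR adjusted p = 0.823) nor mt-Co1 (0.45, adjusted p = 0.505) passed.

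The strongest falls included Nlrp6, an inflammasome sensor. Its level was 656.6 to 1074.5 CPM in the Liver cluster nuclei (median 835.9), 107.8 to 422.8 in Cell Suspension (231) and at most 13.96 in Primary Hepatocytes, and the 3 groups did not overlap. Other hepatocyte nuclei had 221.6, 362.2 and 6.22 CPM, and background barcodes 55.6. The log2 fold change from Liver to Primary Hepatocytes was -6.81 (SE 0.30, adjusted p = 1.68e-41), against -5.53 in other nuclei, with a difference of -1.35 (adjusted p = 0.00101). That difference missed the threshold without mouse 6 (adjusted p = 0.0508), with spliced UMIs alone (-1.15, adjusted p = 0.0588) and with unspliced UMIs alone (-0.91, adjusted p = 0.856). Of the 5 largest falls the other 4 were 9030616G12Rik (-6.33), Nr1i3, Hnf4aos (-5.51) and 5830473C10Rik (-5.39).

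From Cell Suspension to Primary Hepatocytes all 18 hepatocyte genes fell (median -1.73, other nuclei -3.15). Pck1, the rate-limiting enzyme of gluconeogenesis, was 873.2 to 3236 CPM in Cell Suspension (median 1609) and 30.1 to 100.2 in Primary Hepatocytes (62.7), which did not overlap. It changed by -5.12 (SE 0.29, adjusted p = 1.03e-31), against -6.89 in other nuclei. Nlrp6, Sult2a8, Nr0b2 (the bile acid responsive repressor SHP) and Rgs16 followed with -5.06 to -4.41. Among the rises, Aen, a p53-induced nuclease, went from 0 to 32.5 CPM in Cell Suspension (median 20.5) to 153.8 to 277.5 in Primary Hepatocytes (191.4), which did not overlap (2.96, adjusted p = 7.29e-16; other nuclei 2.79). The other rises were of Gm49774 (3.15), Zbp1 (3.14), Sprr1a (3.01) and Eaf1 (2.97), each 2.91 to 3.21 within cluster 8, and Sprr1a did not pass with unspliced UMIs alone (0.54, edgeR adjusted p = 0.641). Of the 13 mitochondrial genes 10 fell from Cell Suspension to Primary Hepatocytes (median -1.03), and 12 did within cluster 8.

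Immediate early genes, the first to respond to a stimulus, rose from Liver to Cell Suspension in the cluster nuclei as well. Of 19 measured 13 rose and none fell (median 1.87, against 0 over all genes), while 18 of 19 rose in other hepatocyte nuclei (median 2.85). The difference of the change passed for 12 of 19 (10 with RLE scaling), each less raised in the cluster nuclei. Within cluster 8 alone 9 of 19 rose and within cluster 19 alone 8 of 15, so both clusters showed the rise. The 19 genes summed to 464 CPM in Liver (244.9 to 709.6) and 2818 in Cell Suspension (1432 to 4362) in the cluster nuclei, to 328.1 and 6220 in other hepatocyte nuclei, and to 1350 in background barcodes (520.2 to 1963, 6 pools). In the fit with the pool as a covariate 11 of 19 rose.

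Fosb, a subunit of the AP-1 factor, was 0 to 6.04 CPM in the Liver cluster nuclei and 46.2 to 117.6 in Cell Suspension (median 94.9), which did not overlap. The log2 fold change was 4.81 (SE 0.46, adjusted p = 4.59e-15), with 4.40 within cluster 8 and 4.33 within cluster 19. In other hepatocyte nuclei Fosb went from 1.18 to 196.5 CPM (7.78), and the difference of -2.59 was at an adjusted p of 0.0469, which 5 of the 8 fits without a mouse left above 0.05 (0.0559 to 0.431). Atf3, a stress-response transcription factor, was 0 to 37.6 CPM in Liver and 107.8 to 833.2 in Cell Suspension, without overlap (3.46, adjusted p = 4.59e-15). It rose by 7.26 in other nuclei, with a difference of -3.81 (adjusted p = 1.08e-24). Background barcodes held 20.8 CPM of Fosb and 139 CPM of Atf3.

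Mitochondrial genes were the reverse. All 13 rose from Liver to Cell Suspension in the cluster nuclei (median 2.63), 1 of 13 did in other hepatocyte nuclei (median 0.33), and the difference passed for all 13. mt-Nd3, a subunit of complex I, was 12.6 to 82.1 CPM in Liver and 99.4 to 686.2 in Cell Suspension, without overlap (3.23, SE 0.37, adjusted p = 2.43e-11; other nuclei 0.86). Its change was 2.07 within cluster 8 (edgeR adjusted p = 0.00428) and 0.87 within cluster 19 (edgeR adjusted p = 0.531). Within cluster 8, 4 of 13 rose (median 1.18, all genes 0.55), and within cluster 19, 2 of 13 (median 0.87, all genes -0.37). All 13 of them also rose over the cluster nuclei with the pool as a covariate (median 1.32). The clusters were formed on these transcripts among others. Cluster 8 held 166 of the 1161 cluster nuclei of Liver and 705 of the 874 of Cell Suspension, and the part of this shift in the pooled rise was not tested.

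Ribosomal protein genes rose too, 30 of 84 (median 1.01), while in other hepatocyte nuclei 3 of 85 rose and 27 fell. The count was 52 with RLE scaling and 48 with DESeq2. By edgeR none passed within cluster 8, with 9 of 84 at an unadjusted p under 0.05, or within cluster 19, with 2 of 82. The count was 22 with the mouse as a replicate block and 0 with the pool as a covariate, where edgeR gave 5 of 84 an unadjusted p under 0.05 (median 0.10). Of the 12 satellite-like genes none passed from Liver to Cell Suspension by edgeR or DESeq2, and 0 of 12 had an unadjusted edgeR p under 0.05 (median -0.25). The direction depended on the pool, since with it as a covariate the median was 0.59, 1 of 12 passed and 10 had an unadjusted edgeR p under 0.05.

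Mpnd, an MPN domain protease, was among the 5 largest falls from Liver to Cell Suspension by the naming rule. Its level in the cluster nuclei was 1347 to 3242 CPM in Liver (median 2344), 331.5 to 780.5 in Cell Suspension (449.6) and 468.9 to 859.7 in Primary Hepatocytes (654.8). The Liver samples lay above all others without overlap. In other hepatocyte nuclei the means were 588.9, 757.8 and 648.3 CPM, and background barcodes held 102. From Liver to Cell Suspension Mpnd changed by -2.12 (SE 0.25, adjusted p = 6.03e-11) in the cluster nuclei and 0.74 in other nuclei, and the difference of -2.67 passed (adjusted p = 2.09e-35). The fall was seen within cluster 8 (-1.62, adjusted p = 0.000112) and within cluster 19 (-2.20, adjusted p = 1.59e-06). It lay in the unspliced UMIs (-2.18, adjusted p = 8.09e-13), while spliced UMIs stood at 0.60 (adjusted p = 0.587). Pcsk4, Plcg1 and Sorbs3 had smaller levels and falls of -2.45, -2.01 and -1.86, with no passing change in other nuclei. Within cluster 8 their edgeR changes were -1.90, -1.78 and -0.44 (adjusted p = 0.517, 0.198 and 0.835), Plcg1 also missed the threshold within cluster 19 (-1.48, adjusted p = 0.161), and none of the 3 passed after thinning to the smallest sample's total (adjusted p = 0.474, 0.420 and 0.546).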

How the data were processed

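Single nuclei of 24 samples, each with a hashtag, were sequenced in 6 pools of 4. Per the labels and the methods of the study, reads were demultiplexed with bcl2fastq 2.19.0 and pseudo-aligned with Salmon alevin to a GRCm38 transcriptome with spliced and unspliced forms. Coordinates and sequences are from GENCODE M21, of the same build. The authors deposited UMI counts per gene and barcode, split into spliced, unspliced and ambiguous reads (32285 genes, 32158 of them with a symbol), hashtag counts, and a table of nuclei with cluster, cell type label and sample. The table also holds a hashtag margin as a fraction, computed by the authors from the top 2 tags, which was not used in a test. The tag named CD2, of the group CS, was read as Cell Suspension of mouse 2. Nuclei were assigned to samples and doublets removed by the authors before that table was made, and no further filter on nuclei was applied here. The 3 count layers were summed. Nuclei per sample numbered 880 to 3175 and UMIs 2709659 to 32104065. Intervals of replicates are SD over samples, which within a sample type are separate mice but sequenced in shared pools. Intervals and counts over all 22 samples hold up to 3 samples from each of 8 mice.

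Counts were summed per sample over the nuclei of clusters 8 and 19 and over other hepatocyte nuclei. Fits used samples with at least 10 of each (6 Liver, 8 Cell Suspension, 8 Primary Hepatocytes). The exception was the sample-type fit of other hepatocyte nuclei alone. It used 8 samples of each type and so also held Liver of mice 3 and 5. Sample types were compared with the quasi-likelihood test of edgeR 4.0.16 (TMM, genes with at least 10 counts in all, no covariates, all 3 types in 1 fit), and the change was compared between the 2 kinds of nuclei by an interaction term. Adjusted p-values are Benjamini-Hochberg values over all genes tested, with a threshold of 0.05. Because the clusters were formed on the same genes, cluster nuclei against other nuclei is a description, on log2 ratios of CPM with a pseudocount of 1. Hashtag counts, hashtag purity and unspliced shares were compared with exact paired sign-flip tests. DESeq2 1.42.0, in place of which edgeR was used here, was an alternative, beside other scalings, filters, splicing states, depths, pools, clusters and left-out mice. The check by cluster 8 or 19 alone, and leaving out Cell Suspension of mice 2 and 3, were chosen after seeing the data, as were the background barcodes (200 to 499 UMIs) and the 5588 genes of at least 10 kb.

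Same-numbered samples come from the same liver. Over 3640 genes the deviations of same-mouse samples from their group means correlated at a median of 0.0944 between Liver and Cell Suspension (-0.0361 to 0.215, 6 pairs), -0.0441 between Liver and Primary Hepatocytes and -0.117 between Cell Suspension and Primary Hepatocytes.

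Genes were named by rule: the marker genes and examples of each list, the 10 highest and 10 lowest mean ratios against other nuclei among genes of at least 50 CPM with the same sign in every sample, and per contrast the 5 largest rises and 5 largest falls among called genes of at least 50 CPM whose samples do not overlap. Hnf4a, Mt2, Saa1, Cps1 and others named for a list are examples. The members and lists were chosen with earlier results of these data known. Plots used matplotlib 3.10.9.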

Additional observations from a re-analysis of the deposited data

Results flagged for a closer look

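Of 42 groups of sample values, 3 held a sample far from the others by Dixon's test at its 95% critical value, where 2.1 are to be expected by chance at 1 in 20. Cell Suspension of mouse 3 had 333.91 mitochondrial UMIs per cluster nucleus, and the other 7 samples had 7.10 to 103. Cell Suspension of mouse 2 had 658.76 ribosomal-DNA-like UMIs per cluster nucleus, against 122 to 317.5 in the others. Both samples came from pool 4, whose annotation held no nucleus under 1398 UMIs, and held the deepest cluster nuclei of their type. In Primary Hepatocytes of mouse 4 the clusters took 16.707% of the nuclei, and 3.88% to 8.94% in the other 7 samples.

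The change with the sample type differed between the cluster nuclei and other hepatocyte nuclei by edgeR's interaction test for 926 genes from Liver to Primary Hepatocytes and for 1466 from Liver to Cell Suspension, at an adjusted p under 0.05. Hepatocyte, immediate early and mitochondrial genes among them are described above with their values.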

How the results depend on the processing

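Of 326 recomputations of 26 main values 294 kept their direction and side of the threshold (for counts, stayed within 1.5 times), 26 moved, 5 reversed and 1 newly passed. For 85 values of named genes 1494 of 1630 recomputations were unchanged in this sense, 122 no longer passed, 7 newly passed and 7 reversed. The causes of the changes below were not tested, except that thinning and single clusters leave fewer counts.

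The count between Cell Suspension and Liver (1164) was 616 with spliced UMIs, 775 with the replicate block, 135 after thinning each sample to the smallest total, 64 in cluster 8 and 515 in cluster 19. Between Primary Hepatocytes and Liver (5454) it was 2278 with the pool as a covariate, 1483 after thinning and 2485 in cluster 8, and between Primary Hepatocytes and Cell Suspension (4704) 1079 after thinning. The block moved no other count over all genes by more than 1.5 times. Among the lists it left 6 satellite-like genes (in place of 11) and 2 respiratory chain genes (in place of 5) lower in Primary Hepatocytes than in Liver, and of the named genes Gm10800, Gm10801 and Gm21738 no longer passed. Differences of the change from Liver to Primary Hepatocytes (926) numbered 450 with unspliced and 294 with spliced UMIs, and those to Cell Suspension (1466) 571 with unspliced UMIs. Left-out mice gave 378 (without mouse 1) to 1376 genes between Cell Suspension and Liver, with 716 without mouse 2, then 554 (without mouse 1) to 941 differences of the change to Primary Hepatocytes, and 687 (without mouse 1) to 1674 to Cell Suspension, with 862 without mouse 4 and 966 without mouse 2.

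Against the depth-limited other nuclei, the satellite difference (log2) was 1.22, 2.14 and 2.74 in Liver, Cell Suspension and Primary Hepatocytes. The ribosomal-DNA-like one was 0.615, 0.921 and 0.652 (2.00, 2.07 and 1.03 against all). The mitochondrial one was 0.400 in Liver and 2.01 in Primary Hepatocytes (1.61 and 2.44 against all). Hashtag purity in Liver then differed by 2.23 points in place of -1.68, and the unspliced share in Cell Suspension by 0.573 in place of -3.33. The hepatocyte genes in Liver stood at 0.0231 in place of -0.12 with repeat and mitochondrial genes left out of the total. Without 1 mouse the Liver hashtag ratio was -0.044 (mouse 8) to 0.051 (mouse 4), -0.0185 without mouse 1, and the unspliced difference in Cell Suspension -4.09 (without mouse 6, adjusted exact p = 0.0352) to -2.29 points.

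Reversed genes were Mpnd (0.60, and 0.13 for the difference of the change) and Ttr (0.33) with spliced UMIs, Hnf4a in cluster 8 (0.061), and with the pool as a covariate Gm10800 (0.77), Gm10801 (0.69) and Gm21738 (0.78), which had been lower in Primary Hepatocytes than in Liver. In the cluster 8 fit that gave the Hnf4a value the median of all genes was 0.94. RLE scaling moved the median of all genes by 0.26 from Liver to Cell Suspension, 0.20 from Liver to Primary Hepatocytes, and 0.36 and -0.15 for the differences of the change to Cell Suspension and to Primary Hepatocytes. DESeq2 moved it by 0.27 and, against Cell Suspension, by -0.22, and leaving out repeat and mitochondrial genes by 0.13, 0.16 and, for the difference of the change to Primary Hepatocytes, -0.33, where the split became 252 higher and 770 lower. Depth limits the comparison: the cluster nuclei of a sample held 24369 to 1051551 UMIs, and genes with few counts can differ without passing.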

Other observations

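Barcodes outside the annotation with at least 500 and under 2000 UMIs numbered 1280 to 4581 per pool. Their satellite-like sum was 8795 to 21619 CPM, above the background of the same pool (3037 to 9424 CPM) in 6 of 6 pools and below its cluster nuclei (13081 to 33071 CPM) in 5 of 6, the exception being pool 2 with 21619 against 21470 CPM. Their mitochondrial sum was 5462 to 19488 CPM and their median hashtag count 616 to 2342.5 UMIs. Their sample of origin was not assigned here, so they enter no comparison.

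Among the heterochromatin genes, which include the HP1 genes Cbx1, Cbx3 and Cbx5 and the DNA methyltransferase Dnmt1, 2 of 18 were called lower from Liver to Cell Suspension in the cluster nuclei (median -0.60, against 0 over all genes), and in other hepatocyte nuclei 3 were higher and 7 lower (median -0.01).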
